A study of Mus musculus with 29 samples.

Results

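Satellite repeats are short sequences repeated in tandem. Element rows of class Satellite were taken from 4 tables of RNA-seq read counts of mouse embryonic stem (ES) cells. They numbered 9 of the 1153 repeat element subfamilies in each table, beside 24421 genes. The rows were GSAT_MM, MMSAT4, IMPB_01, ZP3AR, SUBTEL_sa, MurSAT1, SYNREP_MM, CENSAT_MC and (CATTC)n, and all 9 are accounted for here. The choice used the names of the rows and no measured value.

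GSAT_MM is the major satellite of the mouse, also called gamma satellite, which makes up the pericentromeric heterochromatin of mouse chromosomes. In ES cells as in most cells this heterochromatin carries histone H3 methylated on lysine 9, placed by the SUV39H enzymes and bound by HP1 proteins, and the repeats are transcribed at a low level. In early mouse embryos the major satellite is transcribed at higher levels before the chromocentres form, and cells in the 2-cell-like state, a rare state of ES cells with transcription of early embryonic genes, have decondensed chromocentres. The name of SUBTEL_sa marks it as a subtelomeric satellite. For the other rows no role is stated.

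All 20 libraries came from 129/Ola ES cells on gelatin-coated plates with 15% serum, in 4 experiments with 2 libraries in each of 10 groups. The knockout experiment held 2 lines under the label Trim66 knockout, KO1 and KO2, and wild-type (WT) cells. Trim66 encodes a chromatin-associated protein of the tripartite motif family. The overexpression experiment held cells with GFP-TRIM66 and cells with the GFP vector. The Dax1 experiment held 2 knockdowns, sh1 and sh2, each with its own hairpin against Dax1, whose symbol is Nr0b1 and which encodes an orphan nuclear receptor, and a control. The last experiment held cells with a double knockdown of Dax1 and Dux and their own control. Dux encodes the homeobox factor that turns on genes of the 2-cell embryo. The labels name neither the clone history of the lines nor the promoter of the transgene, and none states whether replicates were separate cultures. The p-values below therefore measure the spread between these libraries, which may be technical.

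Totals ranged from 12483949 to 17365296 counts per library, and the share of counts in all repeat elements from 3.98% to 9.45%. All 16 ES cell markers examined had counts, and their summed level lay between 3433 and 10534 CPM (counts scaled to a library total of 1000000). Trim66 had 35, 38, 33 and 48 counts in the 4 libraries labelled knockout, against 11 and 15 in wild type, so the targeted gene went against the label (edgeR log2 fold change 1.55, adjusted p = 0.00483), and directions in that experiment rest on the label. Without WT replicate 1 that call was lost (1.38, adjusted p = 0.0678), and which part of the gene was deleted is not stated in the labels. Trim66 stood 6.90 higher (log2) with GFP-TRIM66 (adjusted p = 5.39e-04), and Nr0b1 at -1.17 with the Dax1 hairpins (adjusted p = 7.59e-17) and -0.90 in the double knockdown (adjusted p = 0.275). In the same order of experiments the biological coefficient of variation, a measure of the spread between replicates, was 0.102, 0.283, 0.0392 and 0.189. The highest element shares were those of the GFP vector libraries, 9.45% and 7.64%, and the other 18 libraries reached 7.37%.

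Satellites took between 0.0843% and 0.271% of the counts of a library. MMSAT4 held 84.5% of all satellite counts over the 20 libraries, IMPB_01 8.34%, ZP3AR 6.49%, GSAT_MM 0.507% and SUBTEL_sa 0.182%. These are shares of counts and not of molecules per length, since the tables give no length for a subfamily. Counts of a subfamily pool reads from all of its copies.

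The other 4 rows were near or at 0 and were left out of the tests by the filter on low counts. MurSAT1 had 26 counts in all, in 13 libraries, and SYNREP_MM had 7 counts in 4 libraries. CENSAT_MC and (CATTC)n had 0 counts in all 20 libraries, which allows up to 0.0105 CPM over all of them. For MurSAT1, 12 counts with the Dax1 hairpins stood against 2 in their control, a ratio per library total of 3.18 with a 95% exact interval of 0.707 to 29.2. In the double knockdown 6 counts stood against 1, a ratio of 6.52 (0.791 to 299.7). Both intervals include equality and cover counting error only. In the libraries labelled knockout MurSAT1 had 0 counts, against 3 in wild type. These depths do not resolve a difference for either row.

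The 3 groups with the highest GSAT_MM were Dax1 sh1 (15.3 ± 2.77 CPM), Dax1 sh2 (13.8 ± 0.264) and GFP vector (12.2 ± 2.18; SD, n = 2 each). The 6 libraries of these groups lay between 10.6 and 17.3, and all 14 others between 2.71 and 8.65. Next came KO2 at 7.19 ± 2.07, the Dax1 control at 6.02 ± 1.11, KO1 at 5.14 ± 0.219 and the control of the double knockdown at 4.92 ± 0.281. The lowest were the double knockdown at 4.35 ± 0.264, GFP-TRIM66 at 4.33 ± 2.18 and wild type at 3.34 ± 0.886. Neighbours in this order had overlapping libraries in all but 2 places, between GFP vector and KO2 and between the control of the double knockdown and the double knockdown.

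**Figure D1:**
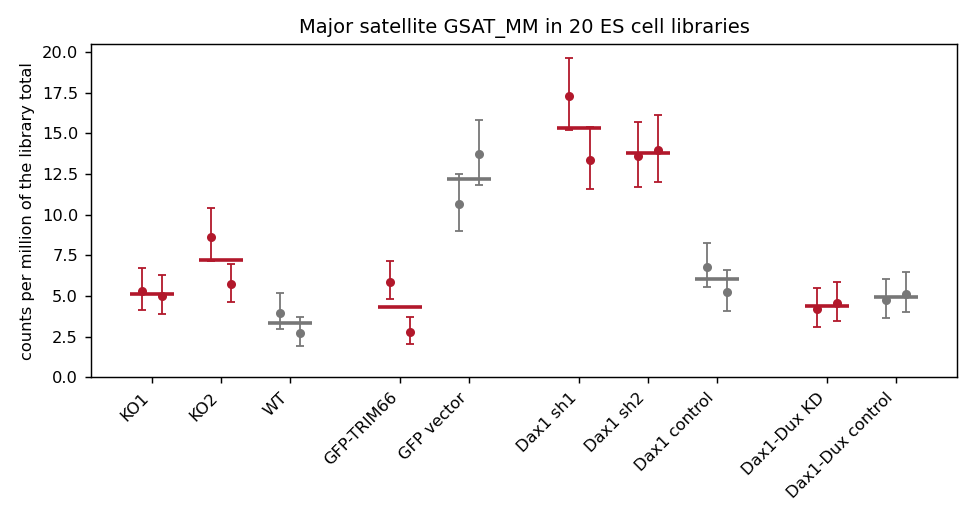
Level in CPM of the major satellite GSAT_MM in each of the 20 libraries, with the exact 95% Poisson interval of each count as a bar and the mean of each group as a horizontal line. The hairpin and GFP vector libraries sit between 10.6 and 17.3, above the other 14 libraries, which reach 8.65 at most.

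Dax1 knockdown addressed how loss of this receptor changes the ES cell transcriptome, and here the major satellite rose and MMSAT4 rose by less. GSAT_MM had 184 and 183 counts with sh2 and 243 and 191 with sh1, against 103 and 73 in the control. In CPM these were 13.6, 14.0, 17.3 and 13.4 with the hairpins, against 6.80 and 5.23 in the control. All 4 hairpin libraries lay above both controls. The mean was 14.6 ± 1.84 with the hairpins (SD, n = 4) and 6.02 ± 1.11 in the control (SD, n = 2).

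The log2 fold change of GSAT_MM was 1.24 (SE 0.144), a fold of 2.36, with an adjusted p of 1.16e-07 by edgeR's quasi-likelihood test. It ranked 12 of 827 elements from the highest fold change, where the median element stood at 0.10. With sh2 the log2 fold change was 1.19 (adjusted p = 3.10e-06) and with sh1 it was 1.29 (adjusted p = 2.09e-07). The hairpins differed for GSAT_MM by -0.10 (sh2 over sh1, approximate 95% interval -0.38 to 0.18, edgeR adjusted p = 0.624). Intervals of log2 fold changes are a normal approximation from the SE and are narrower than the edgeR test implies. In bulk RNA, more cells with the satellite transcribed and more satellite RNA per cell cannot be told apart.

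MMSAT4 had 23485 and 24417 counts with sh2 and 22221 and 22258 with sh1, against 19667 and 16972 in the control. These were 1736, 1864, 1581 and 1559 CPM with the hairpins, against 1299 and 1216 in the control, again with no overlap. The log2 fold change was 0.39 (SE 0.036, edgeR adjusted p = 1.62e-09), a fold of 1.31. It was larger with sh2 (0.52) than with sh1 (0.27), and this difference of 0.25 passed the edgeR test (adjusted p = 1.86e-05).

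The other 3 tested satellites were lower or did not pass the test. IMPB_01 had 1314, 1527, 1309 and 1281 counts with the hairpins, against 1660 and 1485 in the control, and fell by 0.16 on the log2 scale (edgeR adjusted p = 0.0200). That is a fold of 0.898, and in CPM 1 hairpin library (107) exceeded the lower control (106). The call was lost without sh1 replicate 1 (-0.12, adjusted p = 0.0850), without control replicate 1 (-0.14, adjusted p = 0.166) or without control replicate 2 (-0.18, adjusted p = 0.0610).

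ZP3AR divided the hairpins. It had 1492 and 1510 counts with sh2 and 1263 and 1240 with sh1, against 1707 and 1467 in the control. In CPM these were 110 and 115 with sh2 and 89.9 and 86.8 with sh1, against 113 and 105 in the control, so that only the sh1 libraries lay below both controls. The log2 fold change was 0.05 with sh2 (edgeR adjusted p = 0.568) and -0.36 with sh1 (adjusted p = 1.34e-05), and the difference of 0.41 passed the test (adjusted p = 2.91e-06). The mean over hairpins, -0.15 (adjusted p = 0.0172), was lost without control replicate 1 (-0.10, adjusted p = 0.276). SUBTEL_sa had 33, 39, 26 and 22 counts, against 42 and 47 in the control, a log2 fold change of -0.54 (SE 0.242) that missed the threshold (adjusted p = 0.0853).

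In all, 4 of the 5 tested satellites were called over the mean of the hairpins, 2 higher and 2 lower, where 34.6% of all features were called. By DESeq2 2 were higher and 0 lower, and in 1 fit of all 20 libraries 1 was called, which was GSAT_MM. With sh2 2 were called (25.1% of all features), with sh1 4 (43.4%), and between the hairpins 2 (36.4%). The median log2 fold change of the 5 was -0.15, against 0.01 over all features. Genes of the 2-cell embryo were high in the same libraries, where 25 of 26 tested were higher and 0 lower, with a median log2 fold change of 7.80. The member not called was Eif1a, which held nearly all of the list's counts in the controls (3780 and 3492). Without it, a sum chosen after seeing the data, the list was at 247 and 252 CPM with sh2 and 652 and 634 with sh1, against 2.31 and 1.58 in the controls. Of 16 ES cell markers 2 were higher and 11 lower over the mean of the hairpins. With sh2 alone 7 were higher and 4 lower, and with sh1 alone 2 were higher and 14 lower. Their sums were 8647 and 8407 CPM with sh2 and 6537 and 6524 with sh1, against 8144 and 8245 in the controls. Of 13 fibroblast markers tested 7 were higher and 3 lower over that mean. With sh2 alone 4 were higher and 6 lower, and with sh1 alone 9 were higher and 1 lower. Their sums were 767 and 786 CPM with sh2 and 986 and 1029 with sh1, against 899.6 and 891 in the controls. The list of RNAs without a long poly(A) tail, such as replication-dependent histone mRNAs, also had higher sums, between 24.8 and 26.7 CPM, against 13.7 and 14.6 in the controls. Hist1h2bc had the most counts of the list, 142 and 134 with sh2 and 126 and 121 with sh1, against 65 and 80 in the controls. Hist1h1c came next, with 75 and 51, 62 and 65, and 25 and 25 in the same order, so the sums lean on these genes. Of 10 tested, 4 were higher and 0 lower. The part of these 4 gene lists in the satellite values was not tested.

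Genes that build or maintain satellite heterochromatin were mixed with the hairpins. Of 44 tested, 9 were higher and 17 lower, beside 34.6% called over all features, with a median log2 fold change of -0.10. In 1 fit of all 20 libraries 1 was higher and 2 lower. Dnmt3l, whose product stimulates de novo methyltransferases, rose by 0.86 (edgeR adjusted p = 1.02e-14), and the methyltransferase genes Dnmt3a and Dnmt3b rose by 0.41 and 0.30. Dnmt1, the maintenance methyltransferase, fell by 0.23, its partner Uhrf1 by 0.29 and the chromatin remodeller Hells by 0.36 on the log2 scale. In the fit of all 20 libraries Dnmt3l and Uhrf1 kept their calls. Dnmt3a, Dnmt3b, Dnmt1 and Hells lost theirs (edgeR adjusted p = 0.506, 0.693, 0.130 and 0.105). Suv39h1, one of the enzymes that methylate lysine 9 at the major satellite, rose by 0.24 (adjusted p = 0.0128), while Suv39h2 was at -0.10 (adjusted p = 0.236). Of the HP1 genes, Cbx3 fell by 0.12 (adjusted p = 0.0447), Cbx5 was at -0.10 (adjusted p = 0.0723) and Cbx1 at -0.02 (adjusted p = 0.786). Without control replicate 1 the call of Suv39h1 was lost (0.13, adjusted p = 0.328). The call of Cbx3 was lost without sh1 replicate 2 (-0.08), sh2 replicate 2 (-0.10), control replicate 1 (-0.10) or control replicate 2 (-0.15). Of 26 centromere and kinetochore genes, 2 were higher and 6 lower, a share no higher than the 34.6% of all features. Among them Sgol2a, which protects cohesin at centromeres, fell by 0.53, and Incenp, of the chromosomal passenger complex, by 0.35. Both calls were lost in the fit of all 20 libraries (edgeR adjusted p = 0.0685 and 0.0871).

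The libraries labelled Trim66 knockout were compared with wild type to ask what loss of TRIM66 does in ES cells, and GSAT_MM was higher in them, in a call that rests on single libraries as given below. It had 113 and 97 counts in KO2 and 70 and 72 in KO1, against 56 and 41 in wild type. In CPM these were 8.65 and 5.73 in KO2 and 5.29 and 4.98 in KO1, against 3.96 and 2.71 in wild type, with no overlap. The means were 6.16 ± 1.69 (SD, n = 4) in both lines together and 3.34 ± 0.886 (SD, n = 2) in wild type.

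The log2 fold change of GSAT_MM was 0.83 (SE 0.247), a fold of 1.78, with an adjusted p of 0.0364 by edgeR. It ranked 24 of 876 elements from the highest fold change. KO2 was at 1.06 (adjusted p = 0.0333), KO1 at 0.60 (adjusted p = 0.138), and the lines differed by 0.47 (KO2 over KO1, approximate 95% interval -0.05 to 0.98, adjusted p = 0.229). Without KO2 replicate 2 that difference was 0.77 and passed (adjusted p = 0.0277). The call over both lines was lost without KO1 replicate 1 (0.80, adjusted p = 0.0980), KO1 replicate 2 (0.85, adjusted p = 0.0842), WT replicate 1 (1.12, adjusted p = 0.0716) or WT replicate 2 (0.57, adjusted p = 0.286). With KO2 alone it was lost without either KO1 library (1.06, adjusted p = 0.0640 and 0.0628), without KO2 replicate 1 (0.75, adjusted p = 0.0856) and without either wild-type library (1.35 and 0.81, adjusted p = 0.0700 and 0.232). The direction was the same in all of these fits.

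MMSAT4 differed between the lines. It had 32428 and 26274 counts in KO2 and 16728 and 15789 in KO1, against 22241 and 17634 in wild type. In CPM the KO2 libraries were at 2482 and 1551, the KO1 libraries at 1265 and 1093, and wild type at 1575 and 1166. Wild type lay between and overlapped both lines. Over both lines the log2 fold change was 0.14 (SE 0.180, edgeR adjusted p = 0.613). KO2 over KO1 gave 0.77 (SE 0.208, adjusted p = 0.0259). That difference was 0.39 without KO2 replicate 1 (adjusted p = 0.0517), and its call was also lost without either KO1 library (0.89 and 0.67, adjusted p = 0.0914 and 0.175). KO2 over wild type was at 0.53 (adjusted p = 0.133), and without KO2 replicate 2 at 0.82 (adjusted p = 7.43e-04). With the replicate number as a block it was at 0.51 (adjusted p = 0.00664).

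ZP3AR had 1201 and 1727 counts in KO2 and 1447 and 1821 in KO1, against 1290 and 1449 in wild type. The KO1 value passed the edgeR test by a small margin (0.31, adjusted p = 0.0485). It dropped to 0.19 without KO1 replicate 2 (adjusted p = 0.421) and was lost without KO1 replicate 1 (0.39, adjusted p = 0.0978) or without either wild-type library (0.26 and 0.32, adjusted p = 0.250 and 0.158). IMPB_01, with 1687 to 2420 counts in the lines and 1823 and 2203 in wild type, was at 0.02 (adjusted p = 0.888). SUBTEL_sa, with 10 to 38 counts in the lines and 28 and 32 in wild type, was at -0.29 (adjusted p = 0.632).

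Over both lines 1 of the 5 satellites was called, where 23.4% of all features were. In 1 fit of all 20 libraries 0 were called. With KO2 alone 1 was called (11.7% of all features), with KO1 alone 1 (31.2%), and between the lines 1 (23%). The median log2 fold change of the 5 was 0.14 over both lines, against 0.01 over all features. Of 20 genes of the 2-cell embryo tested, 19 were higher and 0 lower, with Eif1a again the member not called. Without Eif1a their sums were 152 and 129.8 CPM in KO2 and 37.9 and 36.7 in KO1, against 3.82 and 2.84 in wild type. Of 16 ES cell markers 4 were higher and 4 lower. Of 12 fibroblast markers tested 6 were higher and 3 lower, with a median log2 fold change of 0.75. Their sums were 788 and 721 CPM in KO2 and 881 and 859.9 in KO1, against 1217 and 1144 in wild type. Fn1 held most of each sum, with 6249 and 7740 counts in KO2 and 7649 and 7990 in KO1, against 14815 and 14934 in wild type. The lower sums therefore follow Fn1 and not the list. The sums of RNAs without a long poly(A) tail were 31.5 and 27.9 CPM in KO2 and 30.2 and 22.8 in KO1, against 25.2 and 25.5 in wild type. The part of these 4 gene lists in the satellite values was not tested.

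Of the 44 heterochromatin genes 6 rose and 4 fell under the knockout label, a share near the 23.4% called over all features, with a median log2 fold change of -0.10. Dnmt3b rose by 1.27 (edgeR adjusted p = 2.36e-05) and Dnmt3l by 1.20. Kdm4b and Kdm4c, which encode demethylases of lysine 9, rose by 0.63 and 0.66, and Ehmt2, which encodes the G9a methyltransferase, by 0.44. Suv39h1 (-0.08, adjusted p = 0.605), Suv39h2 (0.05, adjusted p = 0.804) and Setdb1 (-0.14, adjusted p = 0.215) did not pass the test. Among 26 centromere genes 0 were higher and 3 lower, a share under that of all features, and these were Hjurp (-0.42), Cenpl (-0.43) and Sgol2a (-0.52). Hjurp encodes the chaperone that loads the centromeric histone, and Cenpa itself was at 0.25 (adjusted p = 0.0732). The count of 4 lower heterochromatin genes lay between 0 and 12 when libraries were left out in turn, and that of 3 lower centromere genes between 0 and 4. Without either wild-type library in turn the calls of Ehmt2, Cenpl and Sgol2a were lost, and that of Hjurp without WT replicate 2.

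GFP-TRIM66 was set against the GFP vector to ask what more TRIM66 does, and GSAT_MM was lower with GFP-TRIM66, short of the threshold. It had 102 and 46 counts with GFP-TRIM66, against 153 and 190 with the vector. In CPM these were 5.87 and 2.80 with GFP-TRIM66, against 10.6 and 13.7 with the vector, with no overlap. The vector mean of 12.2 CPM stood above the other control groups, at 3.34 (wild type), 6.02 (Dax1 control) and 4.92 (double knockdown control). GFP-TRIM66, with a mean of 4.33, lay within the range of those groups, which came from other experiments. The log2 fold change of -1.36 (SE 0.483, approximate 95% interval -2.31 to -0.41) had an adjusted p of 0.241 by edgeR. It ran between -2.08 and -0.86 as single libraries were left out. The adjusted p was 0.00122 with elements fitted alone, 0.00741 in 1 fit of all 20 libraries and 0.00182 with the replicate numbers crossed, an alternative chosen after seeing the data. Without Eif1a the 2-cell genes had sums of 6.97 and 4.56 CPM with GFP-TRIM66, against 35.2 and 44.3 with the vector. Of 12 tested 0 were called (median log2 fold change -2.55). In the control libraries of the other experiments these sums lay between 1.41 and 5.94 CPM. The part of the 2-cell genes in the value of GSAT_MM was not tested.

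The whole element class stood lower with GFP-TRIM66 in these libraries. The median element was at -1.08, and GSAT_MM ranked 642 of 890 from the highest fold change. Scaled to 1000000 element counts instead, GSAT_MM was at 125 and 70.3 with GFP-TRIM66, against 113 and 180 with the vector, and these overlap. Nuclear long noncoding RNAs moved in the same libraries, with sums of 376 and 332 CPM with GFP-TRIM66, against 1089 and 911 with the vector. All 8 of these RNAs had counts, 6 were tested, and their median log2 fold change was -1.55. RNAs without a long poly(A) tail had sums of 21.3 and 16.2 CPM with GFP-TRIM66, against 38.0 and 26.2 with the vector. The part of a difference in RNA composition between the libraries was not tested.

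IMPB_01 had 1692 and 1568 counts with GFP-TRIM66, against 3168 and 2271 with the vector, or 97.4 and 95.3 CPM against 220 and 164. Its log2 fold change was -0.89 (SE 0.234, edgeR adjusted p = 0.173), and -1.04 without vector replicate 2 (adjusted p = 0.0480). MMSAT4 overlapped, at 984 and 652 CPM with GFP-TRIM66 and 706 and 1340 with the vector, and its log2 fold change was -0.20 (adjusted p = 0.800). SUBTEL_sa had 68 and 86 counts with GFP-TRIM66 and 58 and 68 with the vector, at 0.13 (adjusted p = 0.897). ZP3AR was at 107 and 87.8 CPM with GFP-TRIM66 and 140 and 115 with the vector, at -0.28 (adjusted p = 0.579). Relative to the median element, all 5 satellites but GSAT_MM had a higher value.

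No satellite passed the test with GFP-TRIM66 in edgeR (0 of 5, where 0.0199% of all features were called). At an unadjusted p under 0.05 there were 0 higher and 2 lower, and DESeq2 called 0. The median of the 5 was -0.28, against -0.02 over all features. Of the heterochromatin genes 0 of 44 were called. Trim28, a corepressor that recruits lysine 9 methylation and a relative of TRIM66, was at 0.98 (edgeR adjusted p = 0.247), and passed without GFP-TRIM66 replicate 2 (1.28, adjusted p = 0.0251) or vector replicate 2 (1.55, adjusted p = 0.0201). Cenpb, which encodes the protein that binds the minor satellite, was at 1.59 (adjusted p = 0.199) among 26 centromere genes with 0 calls. It passed without GFP-TRIM66 replicate 2 (1.94, adjusted p = 1.77e-04) or vector replicate 2 (2.49, adjusted p = 0.0124).

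The double knockdown asked whether the effect of Dax1 loss is still seen when Dux is lowered as well. GSAT_MM was close to its control. It had 52 and 58 counts in the double knockdown, against 66 and 69 in the control, or 4.17 and 4.54 CPM against 4.72 and 5.12. Both double knockdown libraries lay below both controls. The log2 fold change was -0.22 (SE 0.272, approximate 95% interval -0.76 to 0.31, edgeR adjusted p = 0.754).

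The difference between this effect and that of the single Dax1 knockdown was tested as an interaction over all 20 libraries. For GSAT_MM it was -1.44 (SE 0.444, approximate 95% interval -2.31 to -0.57), with an unadjusted p of 0.00505 and an adjusted p of 0.261 by edgeR. The value lay between -1.65 and -1.28 as libraries were left out in turn. Fitted with the 2 experiments concerned alone, the adjusted p was 0.0379. The experiments had separate controls and separate tables, and the difference between experiments cannot be told apart from the addition of the Dux knockdown. Dux itself was counted 2 and 0 times in the double knockdown libraries, against 0 and 0 in their controls.

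ZP3AR had 674 and 696 counts in the double knockdown, against 905 and 889 in the control. In CPM it was at 54.0 and 54.5, against 64.8 and 66.0 in the control, and the groups did not overlap. Its log2 fold change of -0.32 (SE 0.130) had an unadjusted p of 0.0491 and an adjusted p of 0.457 by edgeR. MMSAT4 had 12812 and 9636 counts, against 12117 and 8897 in the control, at 0.17 (adjusted p = 0.757). The first replicate was the higher in both groups, and without control replicate 1 the value was 0.38 with an adjusted p of 0.0148. IMPB_01 was at -0.00 (adjusted p = 0.997), with 1484 and 1447 counts against 1434 and 1646 in the control. SUBTEL_sa was at -0.14 (adjusted p = 0.914), with 20 and 39 counts against 30 and 38.

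In edgeR 0 of the 5 satellites were called in the double knockdown (0.104% of all features), with 0 higher and 1 lower at an unadjusted p under 0.05, and DESeq2 called 0. For the interaction 0 were called as well (0.385% of all features), with 0 higher and 1 lower at an unadjusted p under 0.05. All 17 fibroblast markers had counts in the series. Their sums were 2445 and 2506 CPM in the double knockdown, against 764 and 1723 in the control, and 1 of 14 tested was higher. The sums of ES cell markers were 3433 and 3758 CPM in the double knockdown and 4935 and 3649 in the control, and without Eif1a the 2-cell genes had sums of 19.8 and 19.2 CPM in the double knockdown, against 5.94 and 1.41 in the control (0 of 11 tested called, median log2 fold change 2.62). The part of these lists in the satellite values was not tested. Of the heterochromatin genes 0 of 44 were called and of the centromere genes 0 of 26, with median log2 fold changes of -0.21 and -0.18. The 2 control libraries differed from each other by a chi-square per degree of freedom of 41.9, against 5.53 in the double knockdown. With that spread, 0 calls do not show that these genes were unchanged. Hells was at -0.87 (adjusted p = 0.220), and passed without either control library (-0.66 and -1.04, adjusted p = 4.17e-07 and 7.30e-19).

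**Figure D2:**
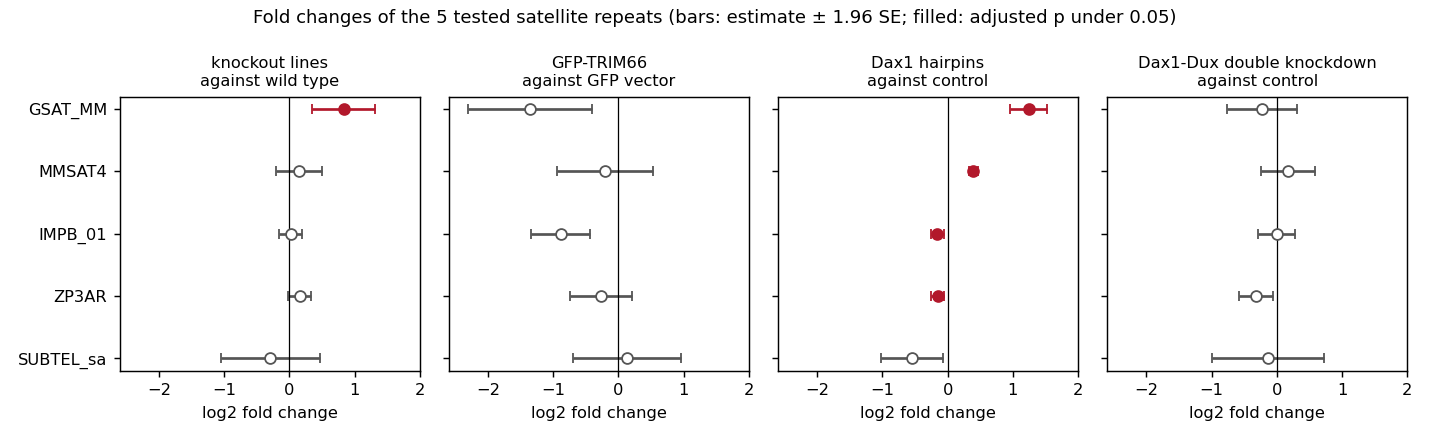
Log2 fold changes of the 5 tested satellites in the 4 main comparisons, from edgeR, with filled points for an adjusted p under 0.05. Bars are approximate 95% intervals, a normal approximation from the SE. GSAT_MM is the highest of the 5 in the libraries labelled knockout (0.83) and with the Dax1 hairpins (1.24) and the lowest with GFP-TRIM66 (-1.36).

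**Figure D3:**
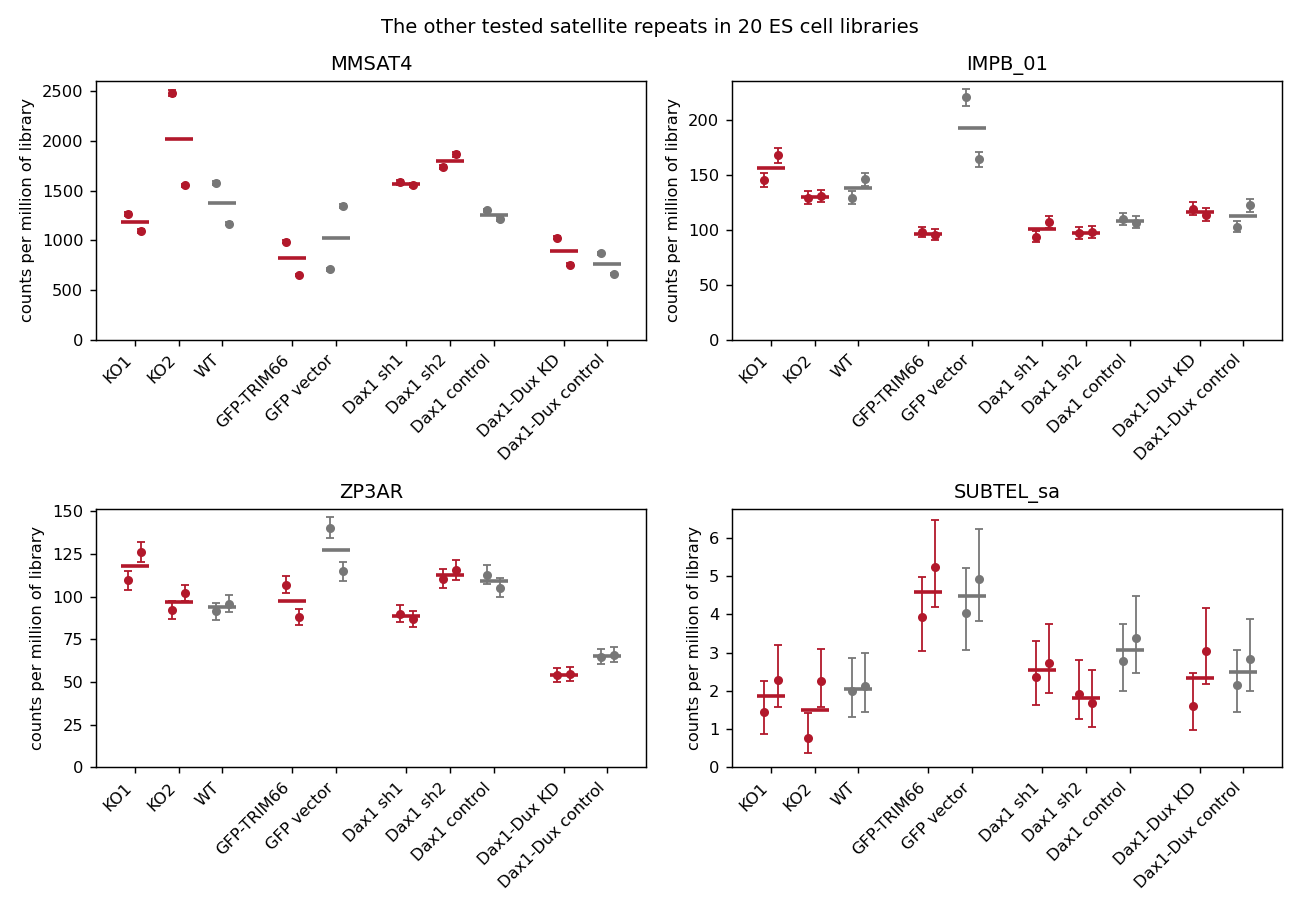
Level in CPM of MMSAT4, IMPB_01, ZP3AR and SUBTEL_sa in each library, with exact 95% Poisson intervals as bars and group means as lines. For MMSAT4 the 2 libraries of KO2 (2482 and 1551) lie farther apart than their counting intervals, and for IMPB_01 the GFP vector libraries (220 and 164) stand above GFP-TRIM66 (97.4 and 95.3).

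The features most like each satellite were found by Pearson's r of log2 CPM, centred on the mean of each experiment, over 20 libraries. The candidates were 12806 genes and 740 elements with a mean of at least 20 counts. These values describe libraries that share depth and RNA composition within an experiment, and no p is given. The satellites did not follow one pattern. GSAT_MM was at r = 0.623 with MMSAT4, -0.467 with SUBTEL_sa, 0.377 with IMPB_01 and 0.260 with ZP3AR. MMSAT4 and SUBTEL_sa were at -0.679. Over the 16 libraries without the overexpression experiment the value of GSAT_MM with IMPB_01 was -0.421 and with ZP3AR -0.135.

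For GSAT_MM the likest elements were the retroviral elements RLTR13E (r = 0.913), LTRIS_Mm (0.886) and ERVB4_1B-I_MM-int (0.886). RLTR13E held 0.922 without the overexpression experiment. The likest genes were Ddit4l (0.873), which encodes an inhibitor of mTOR signalling, Prosc (0.866), now named Plpbp, and Ddhd2 (0.854), which encodes a phospholipase. Ddit4l had 141 and 116 counts with sh2 and 235 and 221 with sh1, against 56 and 56 in their control. It had 77 and 54 counts with GFP-TRIM66, against 189 and 290 with the vector. Without the 2 libraries farthest from its median, r was 0.810.

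MMSAT4 had the closest companions of any satellite, and 3 genes of 1 region of chromosome 4 led them. Gm13051, now Zfp987, was at r = 0.965 (Spearman's rho 0.967), Gm13242, now Zfp980, at 0.960 and Rex2 at 0.942. Without the 2 farthest libraries these were 0.947, 0.923 and 0.905. All 3 lie on chromosome 4 between 145670697 and 147060799 (GRCm38.p6), a span of 1.39 megabases that holds a cluster of zinc finger genes. The span was set by these 3 genes, which are not adjacent, and holds 8 candidates with them. Of the 8, 6 had r of at least 0.5, where 7.14% of all candidates did. The 6 include the 3 genes that set the span, so the count is no test of the region. The others of the 6 were Zfp600 at 0.887, Gm13247 at 0.713 and Znf41-ps at 0.590. The lowest of the 8 were Gm13034 at 0.376 and Gm13251 at 0.437. Of the 20 likest genes, 9 had a Zfp symbol, against 2.76% of the 12806 candidates. On chromosome 4, that of the likest gene, lay 7 of the 20, where 6.62% of all candidates lie on that chromosome. The 7 include the 3 likest genes. They lie within 2.14 megabases, a stretch drawn around the 7 themselves that holds 15 candidates. For GSAT_MM 2 of the 20 likest genes had a Zfp symbol, and for the other satellites 0.

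The promoters of the 3 likest genes are printed to show how alike the starts of these genes are. They are the 300-base promoter windows that RefSeq gives for these genes (GRCm38.p6, + strand, 5′ to 3′), at chr4:146097062-146097361 for Gm13051, chr4:145670447-145670746 for Gm13242 and chr4:147021600-147021899 for Rex2. The windows of Gm13051 and Gm13242 surround the first base of the gene's span, and that of Rex2 lies inside its span, which starts at 146973610. Capitals mark a run of 28 bases that all 3 share.
Gm13051 (Zfp987): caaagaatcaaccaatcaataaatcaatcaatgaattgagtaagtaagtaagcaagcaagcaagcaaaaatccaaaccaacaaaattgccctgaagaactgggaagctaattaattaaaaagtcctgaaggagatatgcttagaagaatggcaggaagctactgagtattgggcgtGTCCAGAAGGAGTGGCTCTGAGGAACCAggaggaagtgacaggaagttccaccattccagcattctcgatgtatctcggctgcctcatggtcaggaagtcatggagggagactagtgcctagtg
Gm13242 (Zfp980): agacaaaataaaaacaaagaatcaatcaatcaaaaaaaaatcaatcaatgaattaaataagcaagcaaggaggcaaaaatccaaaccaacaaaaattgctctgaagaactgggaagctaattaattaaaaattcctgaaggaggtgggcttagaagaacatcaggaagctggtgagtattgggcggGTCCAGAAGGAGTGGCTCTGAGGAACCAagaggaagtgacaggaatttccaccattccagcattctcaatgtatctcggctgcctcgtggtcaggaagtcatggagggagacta
Rex2: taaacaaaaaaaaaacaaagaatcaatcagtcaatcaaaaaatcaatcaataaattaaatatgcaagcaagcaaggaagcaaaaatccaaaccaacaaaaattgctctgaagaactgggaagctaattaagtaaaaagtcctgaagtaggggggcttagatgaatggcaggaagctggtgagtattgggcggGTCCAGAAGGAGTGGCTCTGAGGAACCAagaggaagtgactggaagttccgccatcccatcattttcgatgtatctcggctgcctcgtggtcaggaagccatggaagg
The aligned parts were identical at 92.9% of bases for Gm13051 and Gm13242, 92.2% for Gm13242 and Rex2 and 90.7% for Gm13051 and Rex2. The run in capitals occurred in 8 of 32851 promoter windows (0.0244%), all on chromosome 4. These 8 include the 3 windows from which the run was taken. How reads that fit several of these genes, or a gene and an MMSAT4 copy, were divided is not given in the sources used here. The windows of Gm13051 and Gm13242 lie mostly before the first base of the gene. Their likeness therefore does not show whether reads of the transcripts were shared, and the transcripts were not compared. Whether the 3 values of r are separate measurements is not known, and whether MMSAT4 copies lie in these genes was not tested.

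Gm13051 and MMSAT4 also varied together within groups. In KO2 Gm13051 had 1150 and 915 counts, where MMSAT4 had 32428 and 26274. In the GFP vector libraries Gm13051 had 302 and 610 counts, where MMSAT4 had 10151 and 18562. In the double knockdown Gm13051 had 446 and 312 counts, where MMSAT4 had 12812 and 9636. In CPM, the library with more MMSAT4 was the one with more Gm13051 in 10 of 10 groups. Gm13051 was picked by its r over these same libraries, and differences within groups enter that r. This count is therefore a description and no separate support. The likest elements were MTA_Mm-int (0.879), MurSatRep1 (0.812) and ORR1A0-int (0.808).

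**Figure D4:**
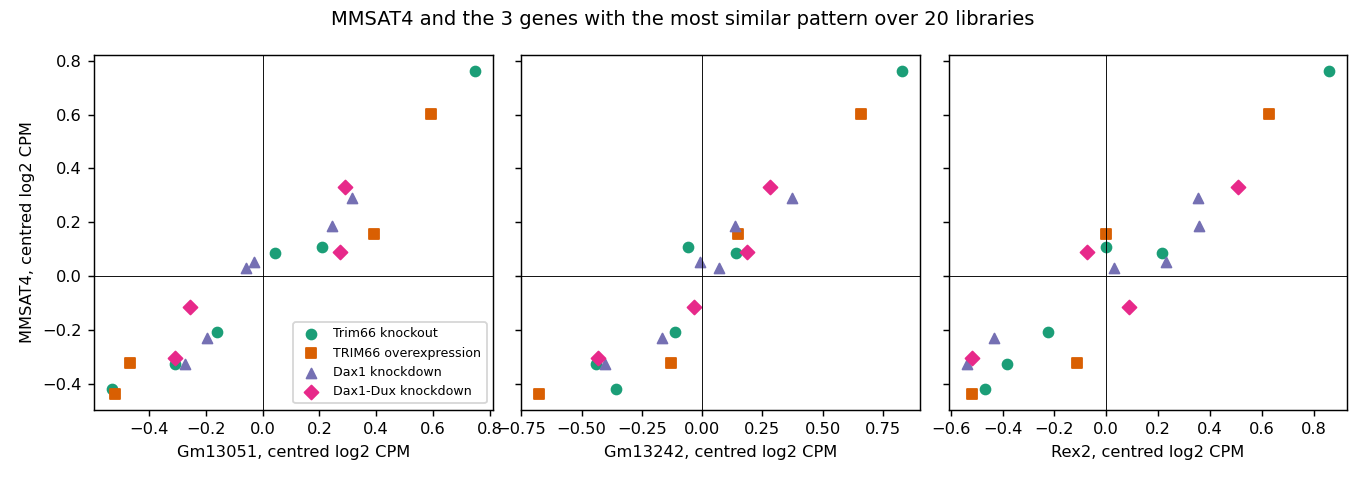
MMSAT4 against Gm13051, Gm13242 and Rex2, each as log2 CPM centred on the mean of its experiment, with 1 point per library and a symbol for each experiment. Libraries high in MMSAT4 are high in each of the 3 genes, at r = 0.965, 0.960 and 0.942 over 20 libraries.

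IMPB_01 was most like the DNA transposon MER105 (r = 0.954) and the old LINE elements L2b (0.944) and L2c (0.940). Among genes it was most like Malat1 (0.900), an abundant long noncoding RNA kept in the nucleus, Zgrf1 (0.893) and Wdr38 (0.887). Malat1 had 3796 and 3001 counts with GFP-TRIM66, against 11421 and 7308 with the vector. Without the 4 libraries of the overexpression experiment r was 0.503 for Malat1, 0.334 for Zgrf1 and 0.455 for Wdr38, so the likeness to these genes rests largely on that experiment. MER105 kept 0.722, L2b 0.617 and L2c 0.598.

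**Figure D5:**
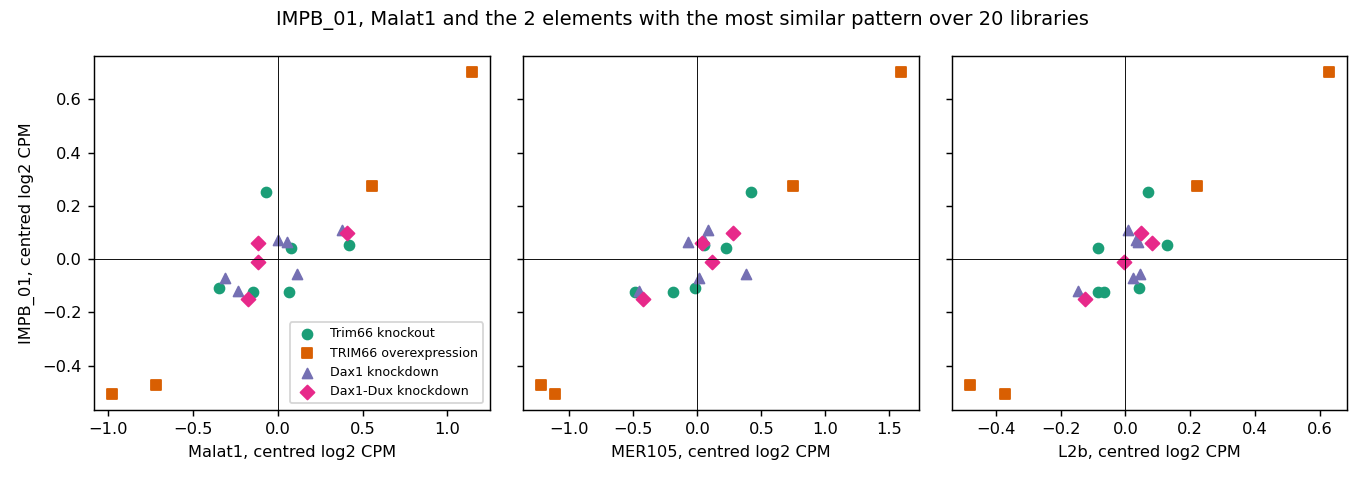
IMPB_01 against Malat1, MER105 and L2b, each as log2 CPM centred on the mean of its experiment, with 1 point per library. The 4 overexpression libraries (squares) hold the extremes of each panel, and r over the other 16 libraries was 0.503, 0.722 and 0.617.

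SUBTEL_sa was most like the genes 2610206C17Rik (r = 0.905), Rps2 (0.808), which encodes a ribosomal protein, and Bok (0.807), of the BCL2 family. Its likest elements, MLT1M (0.687), MER54A (0.677) and RLTR41C (0.631), were less close than those of the other 4 satellites. With 10 to 86 counts per library its values carry wide counting intervals. ZP3AR was most like Sp1 (0.813), which encodes a general transcription factor, Fsbp (0.812) and Snhg12 (0.811), and among elements RLTR20A3_MM (0.772), RMER10B (0.758) and RLTR20B3A_MM (0.756).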

How the data were processed

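Counts came from 4 tables, 1 per experiment, of raw read counts for genes and repeat element subfamilies, as the authors deposited them and as the file headers name them. Per the submitters' processing notes the build was mm10, and the tools named, without a role, include HISAT2 2.1.0, Cufflinks 2.2.1 and Trim Galore. The counting tool, the element annotation, the use of strand and the treatment of reads with several matches were not given in sources used here. Reads of a satellite are hard to place in a genome, so a count depends on that treatment. The labels name total RNA as the extract. The 9 ChIP samples were not analysed here.

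Each table was fitted with edgeR 4.0.16 (R 4.3.3) over all 25574 features, with the low-count filter filterByExpr, TMM scaling, the quasi-likelihood test and Benjamini-Hochberg adjustment over all features tested, called at an adjusted p under 0.05. Both knockout lines, and both hairpins, were averaged in 1 contrast and also set against the control singly. The interaction used 1 fit of all 20 libraries. DESeq2 1.42.0, other scalings and filters, elements fitted alone, replicate blocks and leaving out each library were alternatives. Levels are CPM, the counts scaled to a library total of 1000000, with exact Poisson intervals that cover counting error only. Intervals of log2 fold changes are a normal approximation from the SE and not taken from the quasi-likelihood test. The fits were also run on counts simulated with 1 spread for all features of an experiment, which is simpler than these libraries, and no result here rests on that run. The genes named are up to 6 called genes of the heterochromatin and of the centromere list in a comparison, those with the smallest adjusted p, a set of textbook satellite factors, the targeted genes, and the 3 genes and 3 elements likest to each satellite. The members, lists and rules were chosen with earlier results of these data known. The crossed block, the likeness without some libraries and the 2-cell sums without Eif1a were added after seeing the data.

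Replicate numbers were not taken as pairs, since the labels give no shared batch. The 27 gene names that had turned into dates were kept as features and not named. Promoters came from RefSeq (GRCm38.p6), and all 3 genes matched.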

Additional observations from a re-analysis of the deposited data

Results flagged for a closer look

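The 2 lines or hairpins of an experiment differed from each other in 3 satellite values, each by a test of the difference itself (edgeR). MMSAT4 was 0.77 higher on the log2 scale in KO2 than in KO1. It was 0.39 higher without KO2 replicate 1 (adjusted p = 0.0517), and the call was lost by DESeq2 (adjusted p = 0.0980) and in 1 fit of all 20 libraries (adjusted p = 0.106). MMSAT4 was 0.25 higher with Dax1 sh2 than with sh1. ZP3AR was 0.41 higher with Dax1 sh2 than with sh1. Both hairpin differences were lost in 1 fit of all 20 libraries (adjusted p = 0.684 and 0.0869). The cause of these differences was not tested.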

How the results depend on the processing

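Over 630 alternative values of single satellites, 546 kept direction and side of the threshold, 44 lost the call, 17 gained it and 23 changed sign. The 630 pool values called in the main fit with values not called there, and only the former can lose a call. The 546 are therefore no measure of how often a call was kept. GSAT_MM, MMSAT4 and ZP3AR entered from every comparison, IMPB_01 and SUBTEL_sa only from the 4 main comparisons. GSAT_MM with the Dax1 hairpins kept its call in all 15 alternatives (1.06 to 1.44). The number of satellites called was 1 over both knockout lines (0 in 1 fit of all 20 libraries, 0 to 1 without single libraries). For KO1 it was 1 (0 with RLE, TMM from genes alone, DESeq2, elements alone and all 20 libraries, 2 without the filter, 0 to 1 without single libraries). For KO2 it was 1 (2 without the filter, with elements alone or with the replicate block, 0 with the groups compared alone or all 20 libraries, 0 to 2 without single libraries). Between the lines it was 1 (0 by DESeq2 or in all 20 libraries, 3 with the replicate block, 0 to 3 without single libraries). With GFP-TRIM66 it was 0 (2, GSAT_MM and IMPB_01, with elements alone or all 20 libraries, 0 to 1 without single libraries). With the Dax1 hairpins it was 4 (2 by DESeq2 or elements alone, 1 in all 20 libraries, 2 to 4 without single libraries). For sh1 it was 4 (1 in all 20 libraries, 3 to 4), for sh2 2 (4 without the filter, 0 in all 20 libraries, 2 to 3) and between hairpins 2 (0 in all 20 libraries, 2 in each leave-one-out fit). It was 0 in the double knockdown (0 to 1) and 0 for the interaction (1 with the groups compared alone, 0 in each leave-one-out fit).

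The share of GSAT_MM per library, as a log2 ratio, was -1.58 with GFP-TRIM66 (-0.60 of element counts), 1.28 with the Dax1 hairpins (0.92 of satellite counts) and -0.18 in the double knockdown (-0.01 of element counts, -0.34 of satellite counts). Signs changed for IMPB_01 in the double knockdown with library totals (0.046), a stricter filter (0.0047), all 20 libraries (0.0099) and the replicate block (0.0034). Without single libraries, signs changed within these ranges. GSAT_MM between hairpins ran from -0.28 to 0.11, IMPB_01 in the lines from -0.069 to 0.10 and in the double knockdown from -0.12 to 0.13. MMSAT4 ran from -0.073 to 0.37 in the lines, -0.61 to 0.38 with GFP-TRIM66, -0.070 to 0.38 in the double knockdown and -0.43 to 0.020 for the interaction. SUBTEL_sa ran from -0.011 to 0.33 with GFP-TRIM66 and -0.67 to 0.24 in the double knockdown, and ZP3AR from -0.060 to 0.087 in KO2 and -0.0016 to 0.10 with sh2. The causes were not tested.

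In the replicate block, same-numbered libraries deviated together at r = 0.0932, 0.135 and 0.344 in the knockout experiment, -0.612 in the overexpression experiment, 0.115, 0.0497 and -0.0287 in the Dax1 experiment and 0.0181 in the double knockdown. With the replicate block 4198 features were called in the knockout lines (3531 without), 4 with GFP-TRIM66 (3 without), 5460 with the hairpins (5143 without) and 6 in the double knockdown (15 without). With the numbers crossed, a choice made after seeing the data, 4115 features and the same 2 satellites were called with GFP-TRIM66. Counts of 10 to 243 per library limit SUBTEL_sa and GSAT_MM, and those under 7 limit MurSAT1 and SYNREP_MM.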

Other observations

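All satellites together made up 2252 ± 651 CPM in KO2 and 1460 ± 93.6 in KO1, against 1607 ± 275 in wild type (SD, n = 2 each). They made up 2026 ± 95.1 CPM with Dax1 sh2, against 1484 ± 67.2 in the control. These sums follow MMSAT4, which holds most of the counts, and say little of GSAT_MM.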
